A study of Mus musculus with 2 samples.

Results

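The chymase locus is a cluster of genes on mouse chromosome 14 that encode serine proteases stored in the granules of mast cells, basophils, neutrophils and cytotoxic lymphocytes. Its members were taken as the gene probes named Cma1 (also called Mcpt5), Cma2, Mcpt1, Mcpt2, Mcpt4, Mcpt8, Mcpt9, Mcpt10, Ctsg or Gzmb, 10 names in all, out of 34741 genes on the array. That count, like all counts of genes here, includes probes without a gene symbol, each under its array name. Of the 10, 9 have a probe, with 1 probe each printed as 1 spot. Mcpt10 has no probe under that name and is not analysed here. On both arrays 8 of the 9 were well above background, and Mcpt9 was above it on neither.

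The study measured RNA of mast cells grown from the marrow of C57BL/6 mice on 2 one-colour Agilent arrays. The control siRNA group received 200 pmol of a control siRNA and the GATA1 siRNA group 200 pmol of an siRNA that targets GATA1, which is a DNA-binding regulator of mast, erythroid, megakaryocytic and eosinophil cells. Before that, both cultures grew 2 weeks in interleukin 3 (10 ng/mL), then another 2 weeks in the same cytokine plus stem cell factor (10 ng/mL). Each group is 1 array that carried a pool from 2 animals, so no difference has a replicate check and there is no test across samples. Having 2 arrays limits how precisely any value is known.

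The proteases of this locus share the fold of chymotrypsin and are made as inactive precursors. Cathepsin C removes a short peptide from their amino terminus, and the active enzymes are held in the granule by serglycin, a proteoglycan whose heparin chains bind their basic surface. In mice, Mcpt1 and Mcpt2 mark mast cells of the mucosa, Mcpt4 and Cma1 those of connective tissue, and Mcpt8 is a protease of basophils. Cathepsin G (Ctsg) is best known from neutrophil granules and granzyme B (Gzmb) from cytotoxic lymphocytes.

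Each probe holds 60 bases and is annotated to 1 transcript, and its sequence sets what its value means. The probes of Cma1 and Mcpt8 are shown whole because they cross an intron and so read spliced RNA. The Cma1 probe spans 1060 bp on the minus strand (mm9, chr14:56561491-56562550) and the Mcpt8 probe spans 375 bp on the minus strand (mm9, chr14:56702300-56702674), and each has 1 reading frame without a stop codon. Capitals are not used in these lines, since no part stands out.
Cma1 probe: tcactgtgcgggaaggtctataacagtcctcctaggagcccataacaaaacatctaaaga
Mcpt8 probe: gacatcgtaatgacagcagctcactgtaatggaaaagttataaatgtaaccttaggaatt

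No run of 16 or more bases was shared between a member's probe and any other probe on the array, with the exception of Mcpt4. Here probes were compared with probes and not with transcripts. Whether a probe also reads the RNA of another gene was not tested. Bases 13 to 39 of the Mcpt4 probe recur as bases 34 to 60 of the probe for Mcpt-ps1, a transcribed pseudogene of the locus. The 27 bases are shown because the probes of these genes are not independent in sequence. All are in capitals, since both probes hold every base.
Mcpt4 and Mcpt-ps1 shared run: TCTGTGATGATGGACTGTTCCCTGTAA

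The probes of Mcpt1 and Mcpt2 overlap over 17 bases that match except at 2 positions, which are in capitals.
Mcpt1 probe, overlap: aagtagctgaGaagTct
Mcpt2 probe, overlap: aagtagctgaAaagCct

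Gata1, the gene targeted, had a signal of 16415 with control siRNA and 3930 with GATA1 siRNA, a log2 difference of -2.23. Signals were divided by each array's 75th percentile over its probes, 303.2 and 340.0 in that order, and all differences are log2 values, GATA1 siRNA minus control siRNA, of these scaled signals. The scanner software's own error of a difference is given as ±. It covers the array and not the cells or animals. For Cma1, Cma2, Mcpt4, Mcpt8, Ctsg and Gzmb it was the same, 0.20. For bright probes it is therefore close to a fixed size and not a spread measured for each probe. For 237 probes printed repeatedly, the SD of the difference over spots had a median of 0.04 for signals of 1000 or more, 0.08 from 50 to 1000 and 0.27 under 50. Of the 8 mast cell markers Kit, Fcer1a, Ms4a2, Cpa3, Hdc, Mitf, Il1rl1 and Slc18a2, 8 were measured, with differences between -0.39 and 0.04.

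Among the chymase locus genes, Mcpt4, Mcpt2, Mcpt1 and Cma2 were at least 1.5-fold lower with GATA1 siRNA, Ctsg and Cma1 were lower by less, and Mcpt8 and Gzmb were higher by less. No member was past 2-fold in either direction, the main size rule, which 0.608% of all 20399 measured genes passed downward and 0.294% upward. At 1.5-fold, 4 of 8 measured members were lower and 0 were higher. Of all measured genes 2.76% were lower and 1.83% higher by that size. The median of the members was -0.48, beside 0.01 for all measured genes. In a pooled culture, fewer cells that carry a transcript and less of the transcript in each cell cannot be told apart. The count of 4 depends on the processing. With normexp background correction of the raw signals and an added offset of 50 it was 1, Mcpt4 at -0.82. With these settings 0.779% of all genes were lower by that size. An added offset shrinks differences of dim probes, and its part was not separated from that of the background correction.

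**Figure D1:**
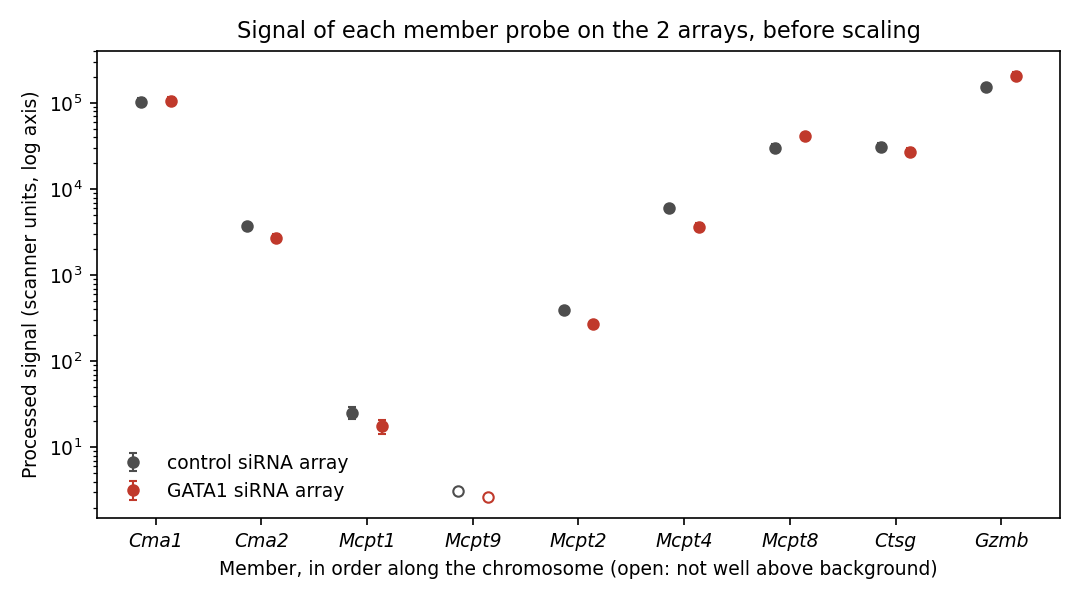
Processed signal in scanner units (log axis) of the 9 member probes, in their order along the chromosome, on the control siRNA array (grey) and the GATA1 siRNA array (red), before scaling. Bars are the scanner software's error, open points are not well above background, and signals of different probes are not comparable; Mcpt4 stands at 5982 and 3650, whereas Gzmb stands at 152675 and 209118.

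The connective tissue chymases came first. Mcpt4, regarded as the counterpart of human chymase in mice, had a signal of 5982 with control siRNA and 3650 with GATA1 siRNA. Its scaled signal was 19.7 and 10.73 times the 75th percentile, a difference of -0.88 ± 0.20, or 1.84-fold lower. This was the lowest value of the members, and 176 of the 20399 genes lay below it. Among the 1000 genes nearest to Mcpt4 in level, the SD of the difference was 0.18 and 0.6% were at least 1.5-fold lower. The probe for Mcpt4 lies on the minus strand (mm9, chr14:56678589-56678648).

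Cma1, the other chymase of connective tissue mast cells, which in mice cleaves like an elastase, differed little between the arrays. Its signals were 103196 (control siRNA) and 106287 (GATA1 siRNA), which after scaling made 340.4 and 312.6 and a difference of -0.12 ± 0.20. The difference of Cma1 was smaller than the software's error. The gap of 0.76 between Cma1 and Mcpt4 was larger than their joint error of 0.29.

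The mucosal chymases were both lower. Mcpt2 had signals of 390.3 (control siRNA) and 269.8 (GATA1 siRNA), a difference of -0.70 ± 0.21, or 1.62-fold lower. With normexp Mcpt2 stood at -0.57, just short of the 1.5-fold line. Of the 1000 genes nearest to it in level, 1.5% were lower by 1.5-fold. Its probe is on the plus strand (mm9, chr14:56663261-56663320).

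Mcpt1 was the dimmest measured member, with signals of 25.3 and 17.7 and a difference of -0.68 ± 0.35. At that level a value of this size was common: the SD over the 1000 nearest genes was 0.39, their median was -0.12, and 13.1% were at least 1.5-fold lower. Normexp correction brought Mcpt1 to -0.26. The Mcpt1 probe lies on the plus strand (mm9, chr14:56638928-56638987).

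Cma2, a second gene of the chymase type, had signals of 3687 with control siRNA and 2731 with GATA1 siRNA. The difference was -0.60 ± 0.20, or 1.51-fold lower, which places it just past the 1.5-fold line. It stood on the other side of that line with the authors' scaling (-0.54) and with normexp (-0.56). Of the 1000 genes nearest in level to Cma2, 1.2% were lower by 1.5-fold. The probe is on the plus strand (mm9, chr14:56592703-56592762), and in the RefSeq table the Cma2 gene model overlaps that of Mcpt-ps1 by 1392 bp.

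Mcpt9, a protease known from mast cells of the uterus, was not well above background on either array, at 3.1 and 2.7, so no difference is given. Its probe (minus strand, mm9, chr14:56648124-56648183) matches the RefSeq sequence around the start of Mcpt4 at 56 of 60 bases, from 42 bases before the annotated start to 17 bases after it. Against the window of Mcpt9 itself the best match was 23 of 60 bases. In that RefSeq table (assembly GRCm38.p6) the whole Mcpt9 model, 3632 bp, lies inside the span of Mcpt2.

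The proteases best known from basophils and cytotoxic cells were both higher with GATA1 siRNA. Mcpt8, the basophil protease, had signals of 30058 with control siRNA and 41349 with GATA1 siRNA, and its scaled signal was 1.23-fold higher (0.29 ± 0.20). Gzmb, the protease with which cytotoxic cells trigger death of their targets, had signals of 152675 and 209118 and was 1.22-fold higher (0.29 ± 0.20). These probes lie on the minus strand, that of Gzmb at mm9, chr14:56877916-56877975. Both differences exceeded the software's error, at 1.44 (Mcpt8) and 1.41 (Gzmb) times it, and stayed under 1.5-fold. The 1000 genes nearest in level had a median of 0.07 and an SD of 0.13 for Mcpt8, and 0.05 and 0.12 for Gzmb.

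Ctsg, cathepsin G, was lower with GATA1 siRNA. Its signals were 31238 (control siRNA) and 27172 (GATA1 siRNA), a difference of -0.37 ± 0.20, or 1.29-fold lower. Ctsg lies next to Mcpt8 among the members (minus strand, mm9, chr14:56718795-56718854), and the gap of 0.66 between the pair was larger than their joint error of 0.29. Of the genes nearest to Ctsg in level, 0.2% were at least 1.5-fold lower and their SD was 0.14.

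**Figure D2:**
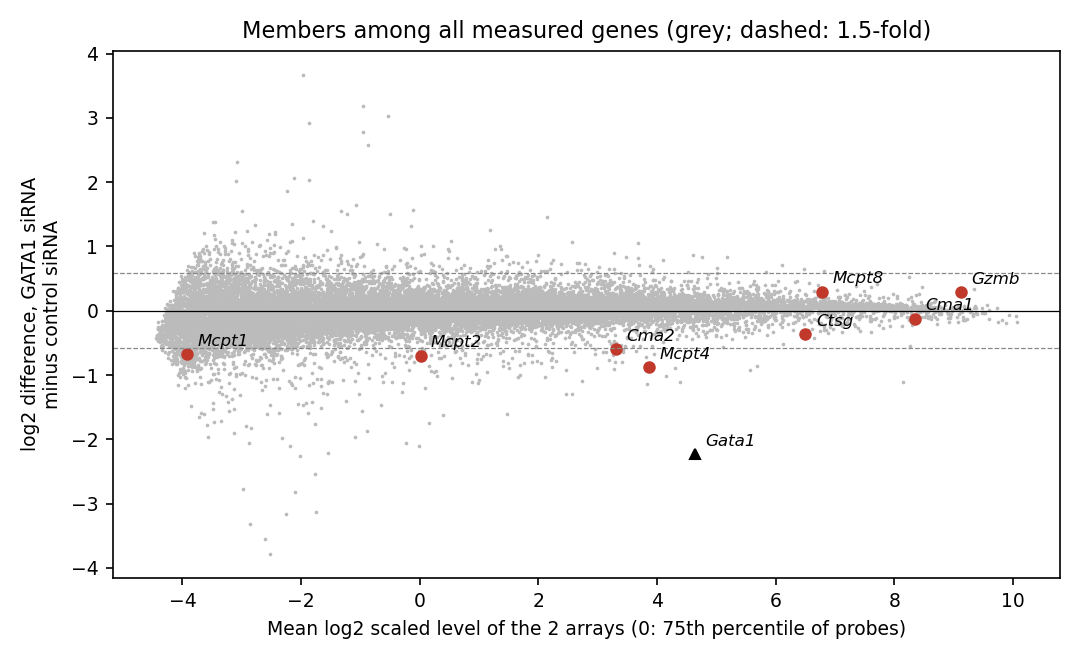
Log2 difference, GATA1 siRNA minus control siRNA, of all 20399 measured genes (grey) against their mean log2 scaled level, with the 8 measured members in red, Gata1 as a black triangle and dashed lines at 1.5-fold. Mcpt4 (-0.88) and Cma2 (-0.60) lie outside the bulk of genes at their level, whereas Mcpt1 (-0.68) lies where the cloud is wide.

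Ordered by difference, the members ran Mcpt4, Mcpt2, Mcpt1, Cma2, Ctsg, Cma1, Gzmb, Mcpt8. Between neighbours in this order, the step from Cma1 to Gzmb (0.41) was the only gap larger than the joint software error of the pair. Of all 28 pairs, 18 had a larger gap than that error, which is close to a fixed size for pairs of bright members. None of the 6 pairs among Mcpt4, Mcpt2, Mcpt1 and Cma2 did, and all 8 pairs of these with Mcpt8 or Gzmb did, with gaps from 0.89 to 1.17. Every member kept its sign under the 8 alternatives that could move its value, with Mcpt4 between -0.93 and -0.82 and Gzmb between 0.26 and 0.35. Among these alternatives only normexp, quantile normalization and loess moved members by differing amounts. Each of the others moved all members alike.

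**Figure D3:**
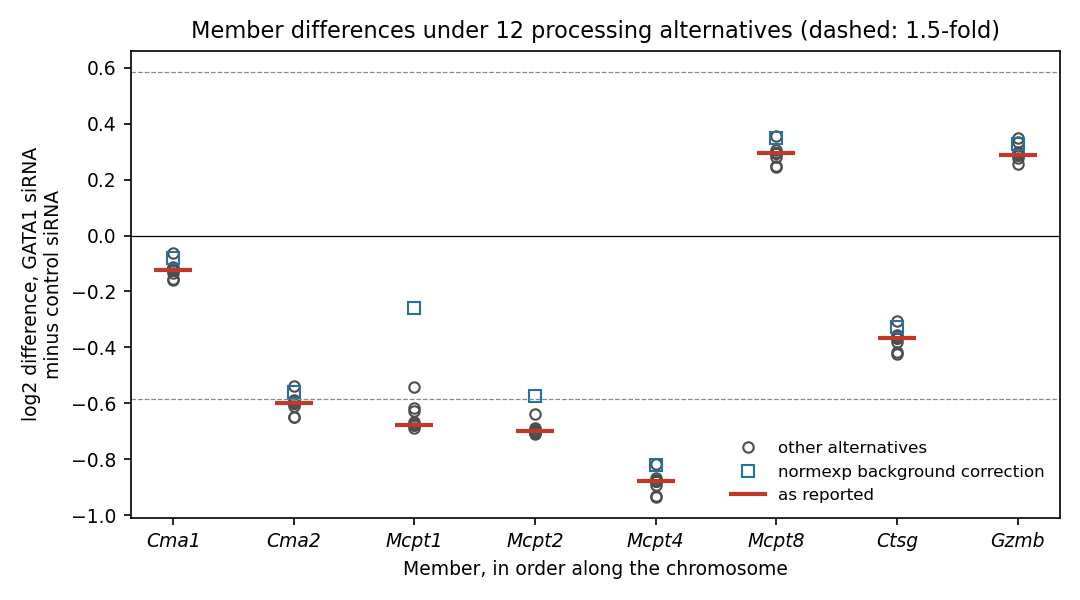
Log2 difference of the 8 measured members as reported (red bars) and under 12 processing alternatives (circles; blue squares for normexp), 4 of which return the reported value because each member has 1 probe, with dashed lines at 1.5-fold. Mcpt4 stays past 1.5-fold throughout, and Mcpt1 shows the widest spread, from -0.69 to -0.26.

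In the array annotation the order is Cma1, Mcpt-ps1, Cma2, Mcpt1, Mcpt9, Mcpt2, Mcpt4, Mcpt8, Ctsg, then the other granzymes and Gzmb, over 316.5 kb. All array probes of this stretch were then read, a choice made after values were seen. Of its 20 probes 15 were measured, 10 of these were below 0, 6 were at least 1.5-fold lower and 0 higher, with a median of -0.12. The share of all measured genes that were lower by that size was 2.76%. The 6 lie between Mcpt-ps1 and Mcpt4, ends that were set by these values, so the counts inside are a description only. From Mcpt-ps1 to Mcpt4, over 110.0 kb, 7 of 8 probes were measured, 7 of the 7 were below 0 and 6 were at least 1.5-fold lower, with a median of -0.68. With normexp Cma2 (-0.56), Mcpt1 (-0.26) and Mcpt2 (-0.57) fell short of 1.5-fold, whereas Mcpt-ps1 (-1.20) and Mcpt4 (-0.82) stayed past it. From Mcpt8 to Gzmb, 7 of 11 probes were measured, 2 were below 0, none was past 1.5-fold in either direction and the median was 0.02.

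Among the probes of the locus outside the member names, Mcpt-ps1 had the lowest difference, with signals of 2629 and 1203 and a difference of -1.29 ± 0.20. Its probe and that of Mcpt4 align over 39 bases with 8 mismatches, the 27 shared bases among them, and how much of either signal comes from the other transcript was not tested. An unnamed probe beside it (mm9, chr14:56570469-56570528, minus strand) stood at -0.60 ± 0.21, with signals of 337.1 and 248.7. Another unnamed probe between Cma2 and Mcpt1 (mm9, chr14:56608666-56608725, plus strand) was bright on both arrays, at 119681 and 124662, and stood at -0.11 ± 0.20. The RefSeq table lists a transcribed pseudogene, Gm5801, between the same genes, and whether this probe reads it was not tested.

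**Figure D4:**
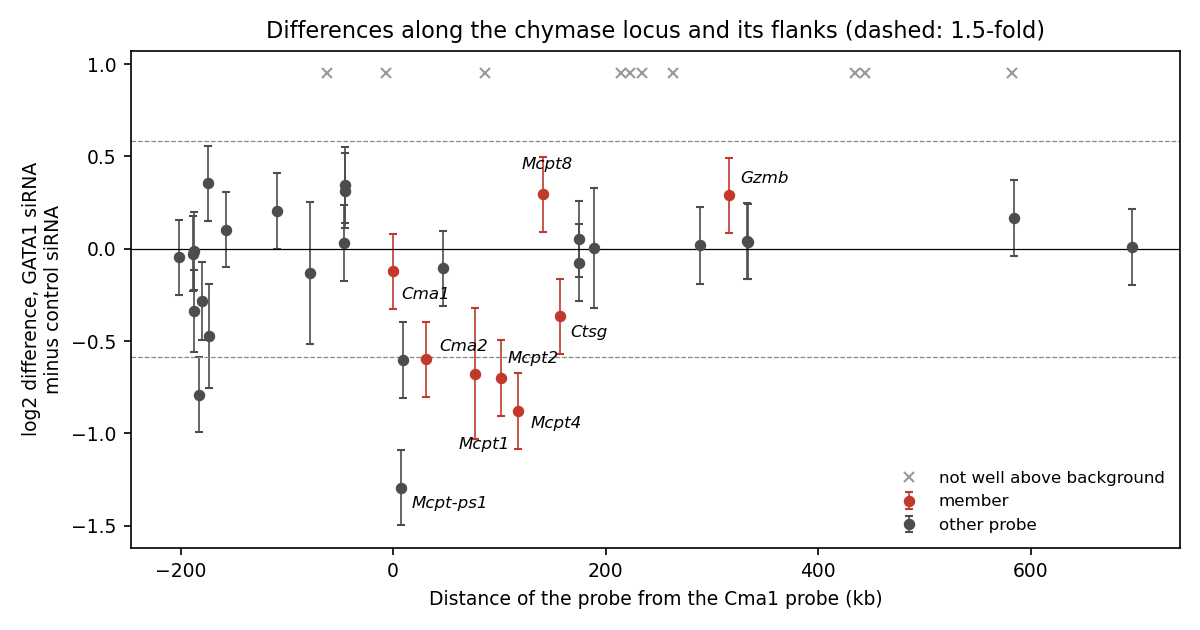
Log2 difference, GATA1 siRNA minus control siRNA, of member probes (red) and other array probes (grey) against their distance from the Cma1 probe in kb, with the software's error as bars, crosses at a fixed height for probes not well above background and dashed lines at 1.5-fold. From Mcpt-ps1 to Mcpt4 6 of 7 measured probes lie below the lower line, and from Mcpt8 to Gzmb none does. With normexp, not drawn here, Cma2, Mcpt1 and Mcpt2 fell short of that line.

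The other granzymes of the locus, proteases of activated cytotoxic cells, showed little signal and little difference. Gzmc, Gzmd and Gzme were measured, 3 of the 6 listed, with values of 0.02, 0.01 and -0.01. Gzmf, Gzmg and Gzmn stayed under the background limit on both. Of 7 genes listed as flanking, RefSeq places Stxbp6 and Nova1 on chromosome 12, and they were left out here. Of the other 5 (Nfatc4, Nynrin, Cbln3, Khnyn and Sdr39u1), all on the Cma1 side, 4 were measured, none was past 1.5-fold, and the largest difference was that of Sdr39u1 at 0.33. On that same side, from Dhrs1 to Sdr39u1, a stretch that takes in these genes, 14 probes were measured. Of them 1, with no gene symbol, was at least 1.5-fold lower (-0.79).

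Promoter sequences for 7 of the 10 members were taken from RefSeq (GRCm38.p6). Cma2, Mcpt2 and Mcpt10 had none in that table. The 250 bases before each annotated start were searched on both strands for 6-letter GATA motifs (AGATAA or its relative AGATAG, and likewise TGATAA or its relative TGATAG), letters that GATA factors bind, which 26.5% of all 32851 promoter windows of that length hold. Of the 7 members 3 held a match (Mcpt4, Mcpt1 and Cma1) and 4 held none (Mcpt8, Mcpt9, Ctsg and Gzmb). The Mcpt9 probe matched the sequence around the Mcpt4 start at 56 of 60 bases, and the Mcpt9 window at 23 at best. Whether the Mcpt9 window is the counterpart of the Mcpt4 window was not tested. A match is a description of letters and not a measured site.

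The windows of Mcpt4, Mcpt1 and Cma1 are printed because they hold a match, in capitals, and those of Mcpt8 and Gzmb because these are the members with higher signal. Each runs from the base farthest from the gene to the base before its start. They lie at chr14:56062311-56062560 (Mcpt4, minus strand), chr14:56017714-56017963 (Mcpt1, plus strand), chr14:55944676-55944925 (Cma1, minus strand), chr14:56085198-56085447 (Mcpt8, minus strand) and chr14:56262335-56262584 (Gzmb, minus strand).
Mcpt4 promoter: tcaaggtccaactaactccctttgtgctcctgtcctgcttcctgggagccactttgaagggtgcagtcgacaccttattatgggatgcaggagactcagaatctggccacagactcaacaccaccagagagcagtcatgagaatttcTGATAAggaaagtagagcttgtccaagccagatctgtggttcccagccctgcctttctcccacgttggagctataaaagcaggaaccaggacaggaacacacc
Mcpt1 promoter: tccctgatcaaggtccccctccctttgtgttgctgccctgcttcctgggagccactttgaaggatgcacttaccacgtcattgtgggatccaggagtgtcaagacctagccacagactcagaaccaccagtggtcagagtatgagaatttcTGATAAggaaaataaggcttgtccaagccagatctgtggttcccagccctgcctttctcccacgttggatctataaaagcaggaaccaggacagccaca
Cma1 promoter: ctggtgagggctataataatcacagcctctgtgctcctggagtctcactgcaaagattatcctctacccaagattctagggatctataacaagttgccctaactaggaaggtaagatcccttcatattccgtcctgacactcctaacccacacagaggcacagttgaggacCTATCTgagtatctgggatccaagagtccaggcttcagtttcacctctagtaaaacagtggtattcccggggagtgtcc
Mcpt8 promoter: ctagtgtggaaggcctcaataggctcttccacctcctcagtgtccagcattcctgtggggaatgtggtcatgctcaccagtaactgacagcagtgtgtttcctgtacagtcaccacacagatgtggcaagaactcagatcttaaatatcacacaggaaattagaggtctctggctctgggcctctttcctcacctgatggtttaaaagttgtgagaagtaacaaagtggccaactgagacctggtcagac
Gzmb promoter: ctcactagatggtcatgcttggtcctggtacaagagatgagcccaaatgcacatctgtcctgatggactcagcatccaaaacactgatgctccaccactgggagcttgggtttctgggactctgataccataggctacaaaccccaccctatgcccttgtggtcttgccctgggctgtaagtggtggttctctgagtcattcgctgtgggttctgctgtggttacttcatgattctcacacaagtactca

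Mcpt4 and Mcpt1 hold the same letters, TGATAA, on the gene's own strand, starting 103 bases before the annotated start of Mcpt4 and 99 bases before that of Mcpt1. The match sits in a run of 22 bases that both windows share, printed here with the match in capitals. TGATAA on either strand occurs in 7.94% of all windows.
Mcpt4 and Mcpt1 shared promoter run: atgagaatttcTGATAAggaaa

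Aligned over their length, the windows of Mcpt4 and Mcpt1 were 81.0% identical, whereas the other 20 pairs of member windows were between 41.9% and 50.4%. Cma1 has its match on the opposite strand, as AGATAG, 74 to 79 bases before the start. Of the 3 members with a match, Mcpt4 (-0.88) and Mcpt1 (-0.68) were at least 1.5-fold lower and Cma1 (-0.12) was not. The Mcpt1 value is weak: its signals were 25.3 and 17.7, and with normexp it stood at -0.26, short of 1.5-fold. Of the 3 measured members with none, Mcpt8 (0.29) and Gzmb (0.29) were higher and Ctsg (-0.37) was lower, each by less than 1.5-fold. The pseudogene Mcpt-ps1 and the genes Cma2 and Mcpt2 enter no such comparison.

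Genes that activate, store or process these proteases differed little as a list. All 8 were measured, none was past 1.5-fold, and the median was -0.01. Srgn, the serglycin core, stood at -0.06, Cpa3, the carboxypeptidase stored together with Cma1, at 0.04, and Ctsc, the activating cathepsin C, at 0.25. Ndst2, the sulfotransferase that mast cells need for heparin, stood at -0.28. Ctsl, a lysosomal cysteine protease, had the largest difference of the list at 0.41.

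Protease inhibitors of the serpin and other families likewise had no member past 1.5-fold among the 6 of 9 that were measured, with a median of 0.24. Serpinb6b, a dim gene with signals of 50.8 and 84.2, had the largest difference at 0.56. Slpi, a secreted inhibitor of cathepsin G, elastase and chymase, stood at 0.38, and Serpinb9, the inhibitor of granzyme B, at 0.20. Serpinb1a, an inhibitor of neutrophil serine proteases and chymase, stood at -0.18. Related granule proteases outside the locus (5 of 7 measured) had a median of 0.36 and none past 1.5-fold. The largest was granzyme A (Gzma) at 0.49, with signals of 26.8 and 42.2.

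Several members are shared with other granulocytes, so markers of those cells were read in the same way. Of 10 genes of neutrophil precursors, 10 were measured, 10 were above 0 and 5 were at least 1.5-fold higher (Ltf 0.79, Ngp 0.75, Camp 0.67, S100a8 0.61 and S100a9 0.60), beside 1.83% of all measured genes. Across the other scalings and normexp, 10 of 10 stayed above 0, and the number past 1.5-fold was between 3 and 5. Their summed scaled level was 82.2 (control siRNA) and 121.4 (GATA1 siRNA), most of it from S100a8 and S100a9. Elane and Prtn3, which stand in the neutrophil and the related protease list alike, are proteases that neutrophils store together with cathepsin G. Elane stood at 0.33 and Prtn3, a dim gene with signals of 30.8 and 48.4, at 0.48, beside -0.37 for Ctsg. The part of these cells in the value of Ctsg was not tested.

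Of 8 basophil genes, 8 were measured and none was past 1.5-fold, with a median of 0.03. Prss34, another protease of basophils, stood at 0.24, beside 0.29 for Mcpt8, and Il4, the gene with the largest difference of that list, at -0.52. The summed scaled level of the list was 691.1 (control siRNA) and 630.9 (GATA1 siRNA), most of it from Fcer1a, a chain of the IgE receptor that the mast cell list also holds. Without Fcer1a the sum was 119.7 and 123.3. Of 10 genes of cytotoxic lymphocytes, 6 were measured and none was past 1.5-fold. Eomes, a transcription factor of these cells, had the largest difference at 0.53. That value rests on 1 of its 2 probes, with signals of 54.4 and 88.3. Cd8a, with 2 probes, was not measured. The median of the list was 0.34, with 4 of the 6 above 0. Perforin (Prf1), which opens target cells to granzyme B, stood at -0.02. Cd3e, a marker of T cells, had signals of 1117 (control siRNA) and 1134 (GATA1 siRNA) and stood at -0.14. Nkg7 stood at 0.34 and Ccl5 at 0.35. The natural killer cell markers Klrb1c and Ncr1 were above background on neither array. Klrd1, another marker of natural killer cells, was above it with GATA1 siRNA only, at a signal of 5.80 and 34.8. The summed level of the 6 was 7.68 and 8.13. The part of basophils and lymphocytes in Mcpt8 and Gzmb was not tested.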

How the data were processed

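RNA of 2 pooled samples was read on 2 one-colour Agilent arrays (genome build mm9, per the file headers), and groups follow the transfection label. Agilent Feature Extraction 10.7.3.1 made the authors' spot intensity values, per the file headers: background-subtracted, detrended and not scaled between arrays. The authors' deposited table of normalized intensity holds the same signals divided by each array's median, found by matching values, and served as an alternative. Spot flags, positions and control types (other columns) were used as deposited.

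Control spots and outlier spots (117 and 133) were left out, repeated spots averaged on the log2 scale, and each array divided by its 75th percentile over 55659 probes. A probe was measured where it was well above background on both arrays (28736 probes, 20399 genes; no spot was saturated). Of all gene probes on the array, before outlier spots were left out, 27235 were named by RefSeq accession and 4146 by symbol, and 24300 kept the array's name. With 1 array a group, rules of size (2-fold, and 1.5-fold) replaced a test. The functions were tested on simulated data.

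Alternatives were normexp (offset 50, limma 3.58.1 in R 4.3.3), 5 other scalings, outlier spots kept, spots with at least 2 of 8 neighbours past 4-fold left out, no or a stricter filter (signal of 50), the brightest or median probe, and size rules of 1.5-fold and 3-fold. Values were set against the 1000 genes nearest in level. Promoters were aligned with Biopython 1.88. Every member was named, with the genes past 1.5-fold and the largest difference of each list; other genes of the lists, Mcpt-ps1 and the unnamed probes were chosen after their values were seen. Members and lists were chosen with earlier results of these data known.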

Additional observations from a re-analysis of the deposited data

How the results depend on the processing

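For single members, 12 alternatives gave 95 values. Of these 31, from the choice of probe and the filters, equal the reported value by construction, since each member has 1 probe. Of the other 64, 63 lay within the scanner software's error of the reported value, and the exception was Mcpt1, at -0.26 with normexp. Many of the 64 could not fall outside that error. Scaling to the median or over all spots, the authors' table and the choices of spots moved every member by the same, smaller amount. Only normexp, quantile normalization and loess moved members by differing amounts. No member changed sign. The count of members past 2-fold was 0 under every alternative run at 2-fold or 3-fold and 4 with the 1.5-fold rule. The count at least 1.5-fold lower was 4, and 3 with loess on level (without Mcpt1), with the authors' table (without Cma2), with the stricter filter (Mcpt1 no longer measured) and, in checks added after seeing the data, without the Mcpt4 or the Mcpt1 probe. With normexp it was 1. The median over members ranged from -0.53 (quantile normalization) to -0.29 (normexp).

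Scaling also moves the background: 374 genes were higher and 563 lower by 1.5-fold as reported (39.9% higher), 489 and 423 with loess (53.6%), and 510 and 448 with the authors' table (53.2%). These counts were 112 and 159 with normexp, 194 and 220 with the stricter filter and 1788 and 2748 with no filter, where the median of all genes was -0.09. At 2-fold, 60 genes were higher and 124 lower as reported, 17 and 31 with normexp, 24 and 61 with the stricter filter and 725 and 1124 with no filter. Signal over background limits Mcpt1, and it leaves Mcpt9 without a difference. No paired analysis was possible because each group has 1 array, so no pairs and no leave-one-out values exist.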

Other observations

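The spot surroundings of the members were even: none of the 9 member spots had a neighbour among its 8 nearest spots that differed 4-fold or more between the arrays, and none was an outlier spot. The pixels of the Cma2 spot varied least, with coefficients of variation of 0.06 (control siRNA) and 0.05 (GATA1 siRNA), and those of the dim Mcpt1 (0.45 and 0.47) and Mcpt9 (0.45 and 0.51) spots varied most. For Mcpt4 they were 0.14 and 0.11.

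Beyond Gzmb, the 4 measured probes from Gm6115 to Parp4 stood between 0.01 and 0.17. Sdr39u1, the nearest measured gene on the Cma1 side, had 2 probes at 0.31 and 0.34.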
